A study of Mus musculus with 2 samples.

Results

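ILC1-like cells, named for the type 1 innate lymphoid cells of the liver, were chosen by their own measured counts in droplet sequencing of the non-parenchymal cells of the liver. A cell was kept if it held 500 or more unique molecular identifiers (UMIs, counted transcripts) from 200 or more genes, with no more than 20% of them mitochondrial. A member then had at least 1 UMI of Ncr1 or Klrb1c, at least 1 UMI of Cxcr6, Cd200r1 or Itga1, and 0 UMIs of Cd3e, Cd3d, Cd3g, of Eomes, Itga2, Klra8 and Klra4, of Cd79a and of Siglech. The rule found 206 cells among 27814 kept cells, out of 33125 deposited. The values of these 14 genes chose the members and are given only as a description.

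Type 1 innate lymphoid cells (ILC1) are lymphocytes without a T cell receptor complex that stay in the liver and share many genes with circulating natural killer (NK) cells. In the mouse liver they are told apart from NK cells by the chemokine receptor Cxcr6, the collagen-binding integrin chain Itga1 (CD49a) and Cd200r1, and by low levels of the transcription factor Eomes and of the integrin chain Itga2 (CD49b). Both cell types carry Ncr1 (NKp46) and Klrb1c (NK1.1), respond to interleukins such as IL-15 and IL-12, and release interferon-gamma and cytotoxic granules.

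There are 2 libraries, 1 per group, from male mice aged 5 months on standard chow, made with 10x Genomics v3 chemistry. In the Hep-ADKTg mice the albumin promoter drives extra adenosine kinase (Adk), the enzyme that turns adenosine into AMP, in hepatocytes. The Hep-ADKWT mice are the controls. Cells were freed by collagenase digestion. The labels do not say how many mice stand behind a library. Genotype, animal, cell preparation and library therefore cannot be told apart, no difference below has a replicate check, and every interval is an exact 95% interval that covers counting error only.

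The 14853 kept cells of the Tg-labelled library held 79568464 UMIs (median 2812 per cell), and the 12961 kept cells of the WT-labelled library held 86165549 (median 4915). Barcodes with at least 20% of their UMIs from a list of 40 hepatocyte genes numbered 4913 in the Tg-labelled library and 354 in the WT-labelled library. In those barcodes Adk (chromosome 14, 21052574 to 21448569, GRCm38) stood at 542 CPM (UMIs of a gene per 1000000 UMIs of the class; 535 to 549.9) in the Tg-labelled library and 512 CPM (489 to 536) in the WT-labelled library, a log2 ratio of 0.08 (0.01 to 0.15). The groups are therefore called by their labels; whether the transgene's transcript is counted as Adk was not tested. The libraries shared 88 deposited barcodes, 0 of them among the ILC1-like cells.

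The 47 ILC1-like cells of the Tg-labelled library had a median of 4269 UMIs and 1828 genes, and the 159 of the WT-labelled library a median of 4971 UMIs and 1953 genes. Of the members, 5 in the Tg-labelled library and 0 in the WT-labelled library had at least 20% hepatocyte-list UMIs. These 5 barcodes held 25251 to 51715 UMIs each, 24.3% to 29.9% from the hepatocyte list and 9.09% to 19.1% mitochondrial, with 1 to 3 UMIs of Ncr1 and Klrb1c, 0 of Cxcr6 and 0 of Xcl1. They contributed 51.0% of the UMIs of the Tg-labelled members. A further 5 Tg-labelled and 21 WT-labelled members held at least 2 UMIs of genes that define endothelial, stromal or myeloid cells (such as Stab2, Dcn and Lyz2). These 10 Tg-labelled and 21 WT-labelled members are called the doubtful barcodes below.

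**Figure D1:**
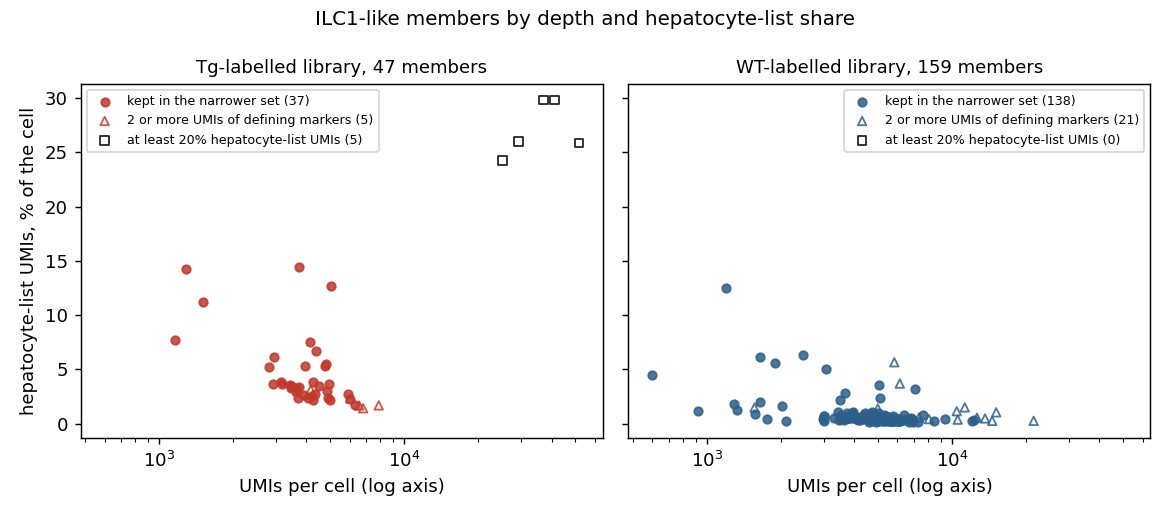
Each point is 1 ILC1-like cell, by its UMIs (log axis) and the percent of them from the hepatocyte list, in the Tg-labelled (left) and WT-labelled library (right). The 5 squares lie above 24% on the vertical axis, while filled circles (37 and 138 cells) lie below 15% and triangles (5 and 21 cells) hold at least 2 UMIs of other cells' defining genes.

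Gene levels are therefore given for the 37 Tg-labelled and 138 WT-labelled members outside the doubtful barcodes, a choice made after seeing the data, with the value over all 47 and 159 members beside it. The 37 cells held 145877 UMIs in all (median 3953 per cell) and the 138 cells 657242 (median 4763). Hepatocyte-list UMIs were still 4.33% of the total in the 37 cells and 0.644% in the 138. Haemoglobin transcripts stood at 68.6 CPM in the 37 cells and 15331 CPM in the 138, where 1 cell held 69.1% of them. A UMI of Ptprc (CD45, the common leukocyte antigen) was found in 35 of the 37 cells and 135 of the 138.

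ILC1-like cells were a smaller share of the Tg-labelled library on every denominator used. They were 47 of 14853 kept cells in the Tg-labelled library (0.316%, 0.233 to 0.421) and 159 of 12961 in the WT-labelled library (1.23%, 1.04 to 1.43), a share 3.88-fold lower in the Tg-labelled library (log2 ratio -1.95, -2.46 to -1.48). Among cells with a Ptprc UMI the shares were 0.825% (42 of 5091) in the Tg-labelled library and 1.68% (148 of 8835) in the WT-labelled library, a log2 ratio of -1.02 (-1.55 to -0.52). Outside hepatocyte-rich barcodes the shares were 0.423% and 1.26% in the same order (-1.58, -2.10 to -1.08). Of these 3 ratios, the one among cells with a Ptprc UMI was closest to 0.

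Within the Cd3-negative cells with an Ncr1 or Klrb1c UMI, the ILC1-like cells were 27.6% (47 of 170) in the Tg-labelled library and 46.6% (159 of 341) in the WT-labelled library, a log2 ratio of -0.75 (-1.26 to -0.28). NK-like cells, which had a UMI of Eomes, Itga2, Klra8 or Klra4 and none of the 3 ILC1 genes, were 45.3% (77 cells) in the Tg-labelled library and 40.8% (139 cells) in the WT-labelled library, a log2 ratio of 0.15 (-0.27 to 0.56). The interval for ILC1-like cells lies below 0 and that for NK-like cells spans it. There were 0.610 ILC1-like cells per NK-like cell in the Tg-labelled library and 1.14 in the WT-labelled library. Cells with UMIs of both gene sets numbered 16 and 27, and cells with neither 30 and 16, in the Tg-labelled and the WT-labelled library.

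With the 37 and 138 members alone, the share of kept cells was 0.249% in the Tg-labelled library and 1.06% in the WT-labelled library (log2 ratio -2.10, -2.66 to -1.56). The share of Cd3-negative Ncr1 or Klrb1c cells was then 21.8% in the Tg-labelled and 40.5% in the WT-labelled library (-0.89, -1.46 to -0.36). Only the members were trimmed here, while the denominators still held the doubtful barcodes. These were 10 of the 47 Tg-labelled and 21 of the 159 WT-labelled members, a larger part of the Tg-labelled ones. Both ratios therefore had to move further from 0, which is no check of the difference. Depth also differed: with every cell thinned to 1000 UMIs before the rule, 37 of 11265 Tg-labelled cells (0.328%) and 131 of 11858 WT-labelled cells (1.10%) met it.

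**Figure D2:**
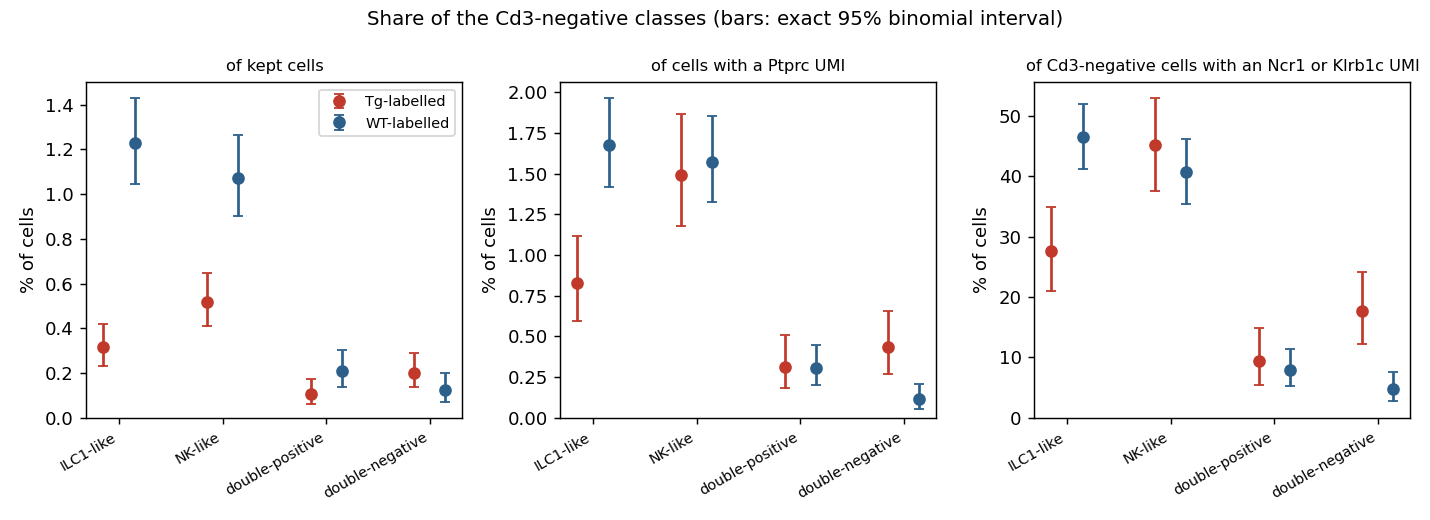
Percent of kept cells (left), of cells with a Ptprc UMI (middle) and of Cd3-negative cells with an Ncr1 or Klrb1c UMI (right) in each class, Tg-labelled beside WT-labelled, 1 library per group, with exact 95% binomial intervals. The ILC1-like intervals do not overlap in any panel (right panel, 21.1% to 35.02% and 41.2% to 52.1%), while the NK-like intervals overlap in the middle and right panels.

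The genes that admitted a cell also differed in how often they were seen, which is a description, since the rule used them. Cxcr6 (chromosome 9, 123806475 to 123811760), a receptor that binds CXCL16, was seen in 66.0% of the 47 Tg-labelled members and 82.4% of the 159 WT-labelled members. Itga1 (chromosome 13, 114953096 to 115101964) was seen in 66.0% and 79.9%, and Cd200r1 (chromosome 16, 44765736 to 44794978), an inhibitory receptor, in 23.4% and 35.2%. Both Cxcr6 and Itga1 were found in 38.3% of Tg-labelled members and 65.4% of WT-labelled members. Outside the doubtful barcodes Cxcr6 was seen in 81.1% of the 37 Tg-labelled and 87.7% of the 138 WT-labelled cells, closer than over all members. Itga1 was then seen in 59.5% and 77.5%, and Cd200r1 in 27.0% and 37.0%. None of this detection was thinned, and the Tg-labelled members had the lower median depth.

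Members that passed on exactly 1 UMI of the 3 genes were 31.9% of the 47 Tg-labelled cells (15 cells) and 10.7% of the 159 WT-labelled cells (17 cells). Just inside the threshold, Xcl1 was seen in 73.3% of those 15 Tg-labelled cells and 70.6% of those 17 WT-labelled cells. Just outside it, in cells with 0 UMIs of the 3 genes and of the NK genes, Xcl1 was seen in 43.3% of 30 Tg-labelled cells and 31.2% of 16 WT-labelled cells. In CPM the order was reversed in the Tg-labelled library, 200 inside and 1032 outside. In the WT-labelled library it was 1776 inside and 640 outside. Doubtful barcodes were included in these cells. The 5 hepatocyte-rich Tg-labelled members, of 25251 to 51715 UMIs each and 0 of Xcl1, lower the CPM of any set that holds them. How many are among the 15 was not counted, and the 30 outside held 4 hepatocyte-rich barcodes. The CPM order without such barcodes was not tested. The detection was not thinned, and median depth was 4194 and 3512 UMIs inside against 3411 and 2236 outside, Tg-labelled first. B-like cells, which lack both gene sets by type, met both positive gates in 0.442% of 1131 Tg-labelled cells (median 3202 UMIs) and 0.300% of 2003 WT-labelled cells (median 3596 UMIs). In hepatocyte-rich barcodes the share was 0.224% of 4913 in the Tg-labelled library (median 988 UMIs) and 0.847% of 354 in the WT-labelled library (median 1472 UMIs). T-like cells with Cxcr6 had at least 2 Cd3 UMIs and met the second gate by their Cxcr6 UMI. Both positive gates were met by 694 of 1760 such Tg-labelled cells (39.4%) and 2001 of 3472 WT-labelled cells (57.6%). Their Cd3 UMIs keep all of these cells out of the rule. Eomes, Itga2, Klra8 or Klra4, which the rule also bars, were seen in 184 of the 1760 T-like cells with Cxcr6 and 570 of the 3472.

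The label was then set beside genes that the rule did not use, in ILC1-like and NK-like cells of each library. Of a list of 24 genes known from mouse ILC1, over all members and with no minimum of UMIs, 18 had a higher CPM in ILC1-like cells of the Tg-labelled library, 5 a lower one (Tcf7, Cd69, Il12rb2, Il18r1 and Itgae) and 1 had 0 UMIs. In the WT-labelled library 19 were higher, 4 lower (the same genes without Cd69) and 1 had 0 UMIs. Of 23 NK cell genes, 22 were lower in ILC1-like cells of the Tg-labelled library and 19 in the WT-labelled library.

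A ratio was taken only for genes with at least 50 UMIs over both classes, which leaves out 14 of the 24 ILC1 genes in the Tg-labelled library and 4 in the WT-labelled library. A gene can reach that minimum through the class where it is high, so the counts and medians of the genes compared describe them and do not support the label. Of the 10 ILC1 genes compared in the Tg-labelled library 9 were higher in ILC1-like cells, with a median log2 ratio of 1.86. In the WT-labelled library 17 of the 20 compared were higher, with a median of 2.46. The medians of all genes compared were -0.12 over 2080 genes in the Tg-labelled library and 0.04 over 4450 genes in the WT-labelled library. Of the NK cell genes, 17 of 18 compared were lower in ILC1-like cells of the Tg-labelled library (median -2.95) and 19 of 23 in the WT-labelled library (median -2.81).

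A gene is called here when the ratio is at least 2-fold. Called higher in ILC1-like cells were 8 of the 10 ILC1 genes in the Tg-labelled library, where 10.9% of all genes were, and 15 of the 20 in the WT-labelled library, where 7.66% were. Called lower were 16 of the 18 NK genes in the Tg-labelled library, against 7.88% of all genes, and 15 of the 23 in the WT-labelled library, against 3.15%. Without the doubtful barcodes 4.24% of 1249 genes were called higher and 5.52% lower in the Tg-labelled library, and 5.22% of 3867 higher and 3.41% lower in the WT-labelled library. The ILC1 genes then had medians of 2.87 in the Tg-labelled and 2.72 in the WT-labelled library, and the NK genes -2.75 and -2.74.

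The leading genes were ranked by the smaller of their ratios in the libraries, so that they are higher in both by the choice. Xcl1 (chromosome 1, 164931644 to 164935527), the chemokine that attracts cross-presenting dendritic cells, stood at 2228 CPM in Tg-labelled ILC1-like cells and 229 CPM in Tg-labelled NK-like cells, a 9.74-fold difference. In the WT-labelled library it stood at 2792 CPM in ILC1-like and 353 CPM in NK-like cells, a 7.91-fold difference. Il7r (chromosome 15, 9505788 to 9530176), the interleukin-7 receptor chain, stood at 356 CPM in Tg-labelled ILC1-like and 17.1 CPM in NK-like cells, and at 393 and 18.0 CPM in the WT-labelled library. Over all members, 8 ILC1-like and 29 NK-like cells of the Tg-labelled library had no UMI of any T cell marker, and there the log2 ratio of Xcl1 turned to -2.52. Of the 37 cells outside the doubtful barcodes, 36 had a Trbc1 or Trbc2 UMI and so were not among these 8, which were therefore mainly doubtful barcodes. With Trbc1 and Trbc2 not counted as T cell markers, 44 ILC1-like and 76 NK-like cells were left and the ratio was above 0.

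Cd7 (chromosome 11, 121036747 to 121039418), an immunoglobulin-family receptor of lymphocytes, stood at 2118 CPM in Tg-labelled ILC1-like and 171 CPM in NK-like cells, and at 2410 and 258 CPM in the WT-labelled library. It was on the list of NK cell genes and was 12.4-fold and 9.33-fold higher in the ILC1-like cells. Cd160 (chromosome 3, 96798763 to 96829351), a receptor for HVEM, was 9.57-fold higher in the Tg-labelled library and 9.08-fold in the WT-labelled library. The T cell receptor gamma constant gene Tcrg-C4 had 53 UMIs in Tg-labelled ILC1-like cells and 0 in NK-like cells, and 240 and 4 UMIs in the WT-labelled library. With the 0 set at 3 counts over the class it was 35.5-fold higher in the Tg-labelled library (log2 ratio 5.15, lower limit 4.80, no upper limit). By the rule for leading genes the other genes were S100a4, Cd226, Ltb, Gimap7 and Serpina3g, 1.98 to 3.56 higher on the log2 scale.

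At the other end, Klf2 (chromosome 8, 72319033 to 72321656), a transcription factor that drives exit from tissues, had 1 UMI in Tg-labelled ILC1-like and 193 in NK-like cells, and 33 and 605 UMIs in the WT-labelled library (log2 ratios -6.59, -11.90 to -4.09, and -4.18, -4.73 to -3.67). Perforin (Prf1), the pore-forming protein of cytotoxic granules, stood at 144 CPM in Tg-labelled ILC1-like and 765 CPM in NK-like cells, and at 218 and 1145 CPM in the WT-labelled library. Itga4, Irf8, Gzma, Flna, Klf3, H2afz, Ctla2a and Lgals1 were the other lowest genes, with log2 ratios of -3.90 to -1.83. Of 958 genes open to the rule in both libraries, 26 were called higher and 27 lower in both, and 0 were called in opposite directions.

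Some ILC1 genes were scarce. Zfp683 (Hobit), a transcription factor needed by mouse liver ILC1, had 1 UMI in the 37 Tg-labelled cells and 7 in the 138 WT-labelled cells. Tcf7, a transcription factor of memory-like lymphocytes, was lower in ILC1-like than in NK-like cells, with 4 and 32 UMIs in the Tg-labelled library (log2 ratio -1.99, -3.95 to -0.50) and 23 and 37 in the WT-labelled library (-0.67, -1.49 to 0.12). Itgae and Tox2 had 0 UMIs in the ILC1-like cells of both libraries. Tnfsf10 (TRAIL), a death ligand of liver ILC1, had 21 UMIs in Tg-labelled ILC1-like and 0 in NK-like cells, and 123 and 5 in the WT-labelled library. Transcripts of the T cell receptor beta constant genes Trbc1 or Trbc2 were found in 36 of the 37 Tg-labelled and 131 of the 138 WT-labelled cells. They were also in 46 of 75 Tg-labelled and 89 of 136 WT-labelled NK-like cells, while a UMI of Trac, Cd5, Cd6, Cd8a, Cd8b1 or Cd4 was found in 3 of the 37 and 15 of the 138 ILC1-like cells. Over all members, 10 of 16 T cell markers had a UMI in the Tg-labelled library (614 CPM summed) and 15 of 16 in the WT-labelled library (1448 CPM summed), with Cd8a at 0 in both and the 3 Cd3 genes at 0 by the rule. What these transcripts contribute to the differences was not tested.

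**Figure D3:**
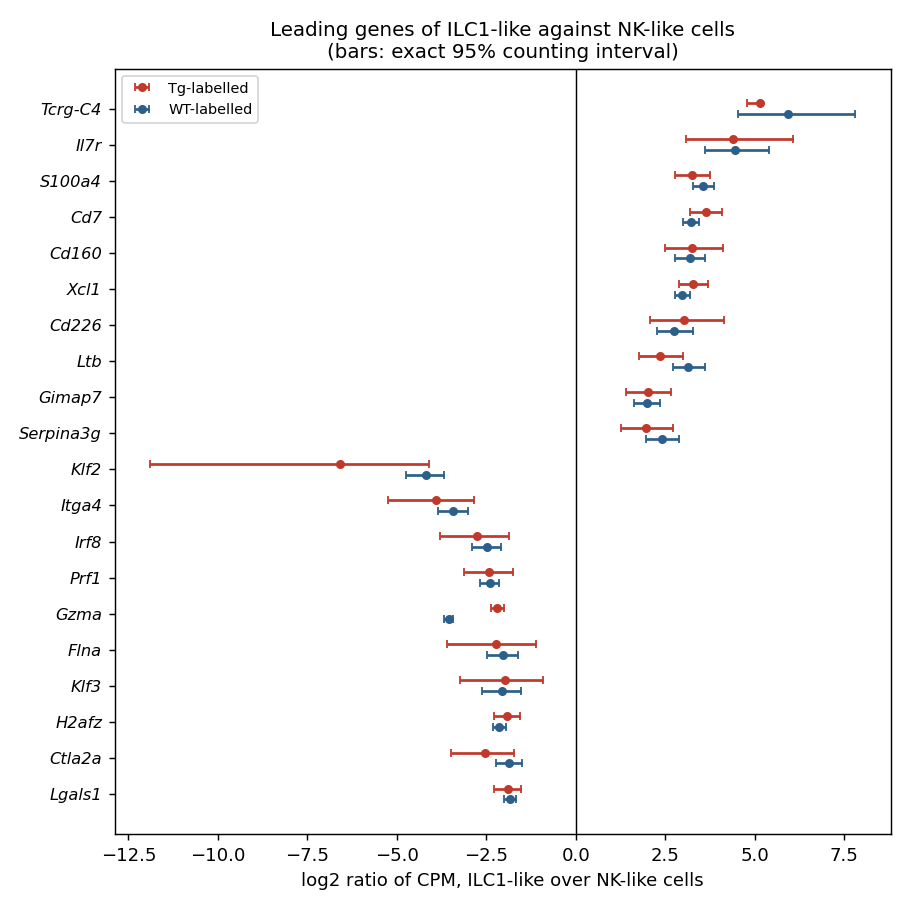
The log2 ratio of CPM in ILC1-like over NK-like cells for the 10 highest and 10 lowest genes by the rule, without the doubtful barcodes, Tg-labelled above WT-labelled, 1 library each, with exact 95% counting intervals. The 10 upper genes lie right of 0 and the 10 lower genes left of it in both libraries. The ratio of Tcrg-C4 in the Tg-labelled library is drawn with its 0 set at 3 counts and has no upper limit.

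Across cell classes, each cell was thinned to 1000 UMIs so that detection could be compared, over all members and with the doubtful barcodes included. Xcl1 was seen in 63.8% of Tg-labelled and 73.2% of WT-labelled ILC1-like cells, in 16.9% and 14.5% of NK-like cells, and in 28.7% and 32.2% of T-like cells with Cxcr6. Prf1 was seen in 17.0% of Tg-labelled and 14.0% of WT-labelled ILC1-like cells, in 31.2% and 44.4% of cells with both gene sets, and in 53.2% and 68.8% of NK-like cells. The cells with both sets thus lay between the other classes for Prf1. Gzmb was seen in 38.3% of Tg-labelled and 40.1% of WT-labelled ILC1-like cells, and in 37.7% and 41.3% of NK-like cells. In B-like cells these 3 genes were seen in at most 0.55% of cells. Without the doubtful barcodes Xcl1 was seen in 75.7% of Tg-labelled and 76.5% of WT-labelled ILC1-like cells, and in 16.0% and 14.8% of NK-like cells. Prf1 was then seen in 18.9% and 15.4% of ILC1-like cells, and in 53.3% and 68.9% of NK-like cells. Gzmb was seen in 45.9% and 40.4% of ILC1-like cells, and in 38.7% and 40.7% of NK-like cells, so its order between the libraries in ILC1-like cells turned with the doubtful barcodes.

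**Figure D4:**
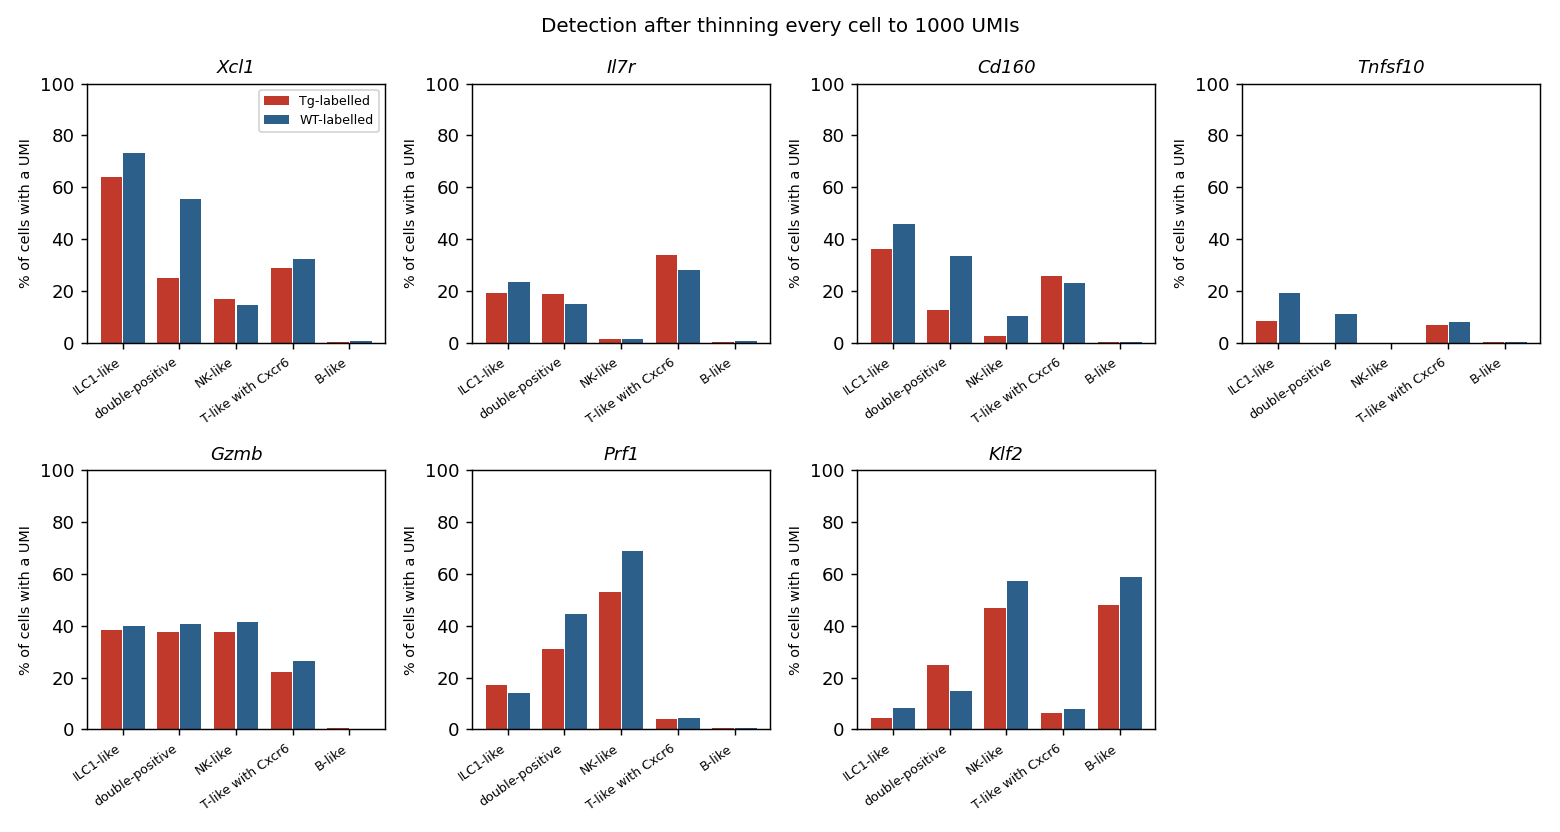
Percent of cells with a UMI of 7 genes after thinning to 1000 UMIs, by class and over all members with the doubtful barcodes included, Tg-labelled (left bar) and WT-labelled (right bar), 1 library each. Xcl1, Cd160 and Tnfsf10 are seen most often in ILC1-like cells in both libraries, Il7r more often in T-like cells with Cxcr6, and Klf2 mainly in NK-like and B-like cells.

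Between the libraries, the levels depended on whether the doubtful barcodes were included. Of 3809 genes with at least 50 UMIs, 10.6% were called higher and 22.5% lower in the Tg-labelled library, with a median log2 ratio of -0.52. In the 37 and 138 cells 3.34% of 2512 genes were called higher and 5.06% lower, with a median of -0.09. The ratios below are Tg-labelled over WT-labelled in the 37 and 138 cells and are to be read against -0.09. The value over all members follows and is to be read against -0.52. Both medians include genes with hepatocyte-derived UMIs. Over all members, the 1454 genes left without those over 25% estimated hepatocyte-derived had a median of -0.89 (1398 lower, 56 higher). Hepatocyte-list UMIs were 4.33% of the total in the 37 cells and 0.644% in the 138, and their effect on these ratios was not tested.

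The granule and death-ligand genes split. Gzmc (chromosome 14, 56231441 to 56234656), a granzyme of ILC1 and activated cytotoxic cells, had 5 UMIs in the 37 Tg-labelled cells (34.3 CPM) and 198 in the 138 WT-labelled cells (301 CPM), a log2 ratio of -3.14 (-4.77 to -1.89) and -4.31 over all members. The WT-labelled UMIs came from 25 cells, of which 5 held 73.2%, and the Tg-labelled UMIs from 3 cells. Gzma (chromosome 13, 113093825 to 113100981), a granzyme more typical of NK cells, stood at 1865 CPM in the Tg-labelled cells and 1038 CPM in the WT-labelled cells (0.85, 0.64 to 1.05; 0.10 over all members). It was seen in 11 of 37 and 33 of 138 cells, and 5 cells held 77.6% of its Tg-labelled UMIs and 55.7% of its WT-labelled UMIs.

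In the NK-like cells Gzma was lower in the Tg-labelled library (log2 ratio -0.52, -0.58 to -0.45), and the difference between the classes was not tested. Gzmb stood at 1028 CPM in Tg-labelled and 1327 CPM in WT-labelled ILC1-like cells (-0.37, -0.63 to -0.12; -1.34 over all members), while its thinned detection was 45.9% and 40.4%, the other way round. Prf1 (-0.60, -1.33 to 0.07), Tnfsf10 (-0.38, -1.12 to 0.30) and Fasl (-0.27, -1.04 to 0.42), the ligand of the death receptor Fas, had intervals that span 0. Of the 15 of 18 effector genes compared, 7 were higher and 8 lower, 1 was called lower and 0 higher, and the median was -0.04.

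Among secreted factors, Ccl3 and Ccl4, inflammatory chemokines, were higher in the Tg-labelled cells. Ccl4 stood at 912 CPM in the Tg-labelled and 510 CPM in the WT-labelled cells (0.84, 0.54 to 1.13; -0.18 over all members), with 35.3% of the Tg-labelled UMIs in 1 cell. Ccl3 stood at 295 and 151 CPM (0.97, 0.42 to 1.499; -0.07 over all members), with 48.8% of the Tg-labelled UMIs in 1 cell. In NK-like cells Ccl4 was also higher in the Tg-labelled library (1.10, 0.80 to 1.41), and the interval for Ccl3 spanned 0 (-0.39, -0.95 to 0.15).

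Xcl1 stood at 2228 CPM in the Tg-labelled and 2792 CPM in the WT-labelled cells (-0.33, -0.50 to -0.15; -1.28 over all members), and was also lower in NK-like cells (-0.63, -1.04 to -0.23). Ifng, the main cytokine of ILC1, had 25 UMIs in 10 Tg-labelled cells and 98 UMIs in 47 WT-labelled cells (0.20, -0.49 to 0.85; -0.79 over all members). Ccl5 stood at 10461 and 10126 CPM (0.05, -0.03 to 0.13; -0.90 over all members). Both intervals in the 37 and 138 cells span 0. Of 8 cytokine and chemokine genes compared, 6 were higher and 2 lower, with 0 called in either direction and a median of 0.12.

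Few receptor genes were called between the libraries. Klrc1 (NKG2A, chromosome 6, 129666015 to 129678973), an inhibitory receptor for the non-classical molecule Qa-1, stood at 377 CPM in the Tg-labelled and 697 CPM in the WT-labelled cells (-0.89, -1.32 to -0.48; -1.90 over all members). It was seen in 21 of 37 and 98 of 138 cells, and after thinning in 18.9% and 44.1%. Its ratio in NK-like cells was -0.47 (-0.97 to 0.01). Klrd1 (CD94), the partner of NKG2A, had a ratio of -0.26 (-0.50 to -0.03; -1.33 over all members), and Klrb1b was -0.43 (-0.85 to -0.04; -1.48 over all members).

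Tyrobp (DAP12), an adaptor of activating receptors, stood at 1892 CPM in the Tg-labelled and 2844 CPM in the WT-labelled cells (-0.59, -0.78 to -0.40; -1.39 over all members). The interleukin-2 and interleukin-15 receptor chain Il2rb stood at 1028 and 1382 CPM (-0.43, -0.69 to -0.18; -1.38 over all members). Il7r was close in both, 356 and 393 CPM (-0.14, -0.60 to 0.30; -1.25 over all members). Of 9 inhibitory receptor genes compared, 8 were lower and 1 higher (median -0.26), of 12 activating receptor and adaptor genes 9 were lower and 3 higher (median -0.19), and of 16 cytokine receptor and signalling genes 13 were lower and 3 higher (median -0.35). Called lower were 0, 0 and 2 of them, where 5.06% of all genes were, and 0 were called higher. Of all 2512 genes, 1470 were lower and 1042 higher. In NK-like cells 8 of 11, 11 of 13 and 7 of 11 genes of these lists were lower.

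Of 14 transcription factors compared, 12 were lower and 2 higher in the Tg-labelled cells, with a median of -0.38. Called lower was 1, against 5.06% of all genes, and in NK-like cells 12 of 15 were lower and 1 was called. Id2, required for all innate lymphoid cells, stood at 1597 CPM in the Tg-labelled and 2018 CPM in the WT-labelled cells (-0.34, -0.54 to -0.14; -1.08 over all members). Tbx21 (T-bet), the defining factor of type 1 lymphocytes, had 19 and 75 UMIs (0.19, -0.62 to 0.93; -0.84 over all members), and Runx3 was -0.16 (-0.66 to 0.30; -1.12 over all members). Ikzf2 (Helios) had 8 UMIs in the Tg-labelled and 78 in the WT-labelled cells (-1.11, -2.38 to -0.06; -1.93 over all members) and was the factor called lower.

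Of the genes for residency and trafficking, Ccr2 (chromosome 9, 124101950 to 124113557), the receptor for CCL2, differed most. It had 3 UMIs in 3 of the 37 Tg-labelled cells and 96 UMIs in 43 of the 138 WT-labelled cells (20.6 and 146 CPM; -2.83, -5.13 to -1.24; -2.35 over all members). In NK-like cells its ratio was -0.07 (-0.50 to 0.34), and in B-like cells of the same libraries -1.91. The integrin chain Itgb7 stood at 158 CPM in the Tg-labelled and 321 CPM in the WT-labelled cells (-1.03, -1.71 to -0.40; -1.60 over all members), Itgb2 was -0.72 (-1.22 to -0.26) and Itgal -0.67 (-1.20 to -0.18).

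The residency-linked G protein regulator Rgs1 stood at 823 CPM in the Tg-labelled and 647 CPM in the WT-labelled cells (0.35, 0.04 to 0.64), but its ratio over all members was -0.62. Cxcr3, a receptor for interferon-induced chemokines, was -0.38 (-1.06 to 0.23; -1.38 over all members). Of 12 trafficking genes compared, 9 were lower and 3 higher, 2 were called lower and 0 higher, and the median was -0.65. The whole list of 24 ILC1 genes, of which 19 were compared, had 16 lower and 3 higher genes, 2 called lower and a median of -0.38; over all members the median was -1.37. The NK cell genes in the same cells had a median of -0.37 over 11 genes, so both lists lay below the median of all genes by a like amount.

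**Figure D5:**
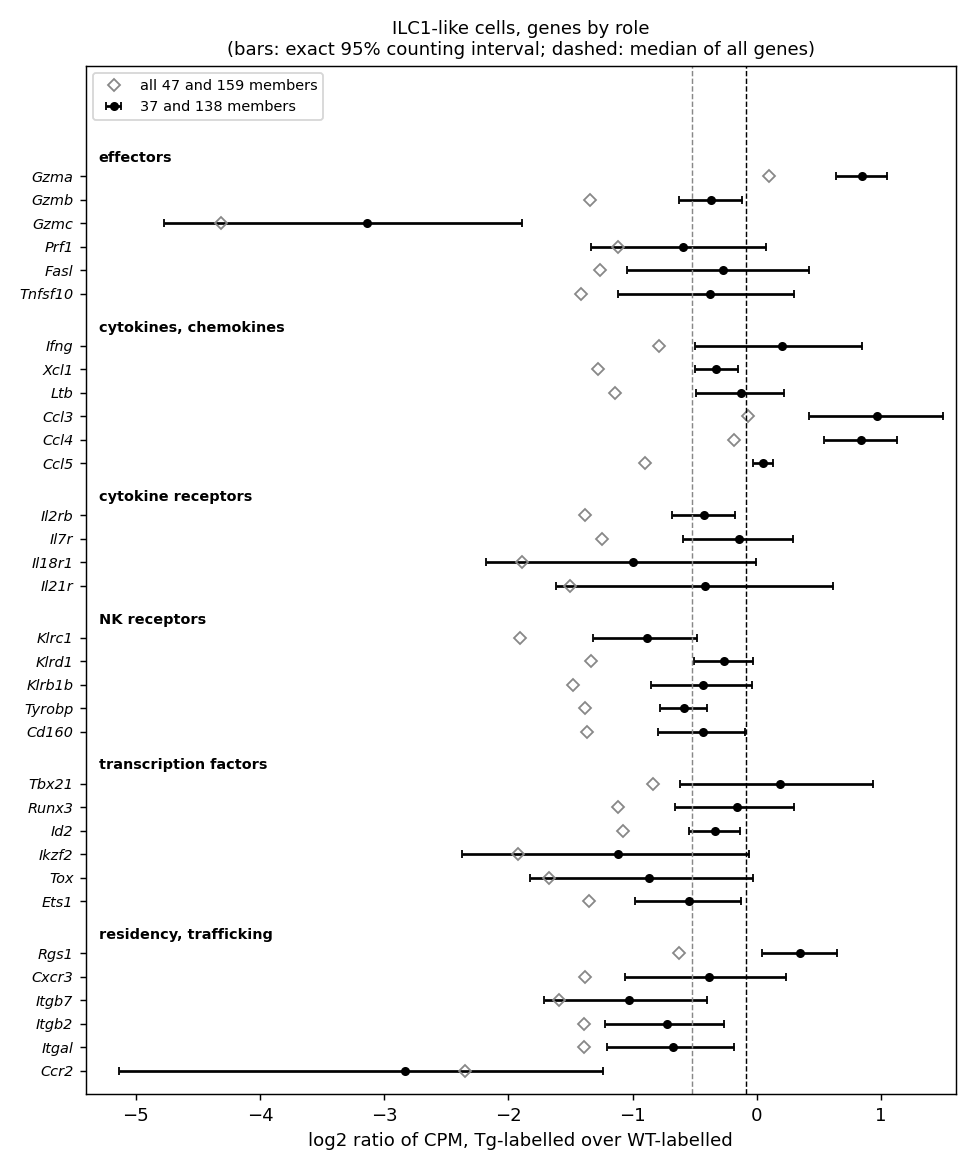
The log2 ratio of CPM, Tg-labelled over WT-labelled, for genes grouped by role in ILC1-like cells, 1 library per group. Filled points with exact 95% counting intervals are the 37 and 138 cells, open diamonds all 47 and 159 members, and dashed lines the medians of all genes, -0.09 and -0.52; Gzmc and Ccr2 lie farthest left, and Ccr2 is the only gene drawn whose diamond lies right of its point.

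Genes of adenosine metabolism, the pathway altered in the hepatocytes, were too scarce in the 37 and 138 cells for a comparison between the libraries as a list. Over all members 7 of 20 were compared, 2 higher and 5 lower, with a median of -0.25 (-0.52 for all genes). The 3 of them not over 25% estimated hepatocyte-derived had a median of -0.54. The adenosine receptor gene Adora2a, whose product raises cyclic AMP in lymphocytes, had 3 UMIs in the 37 Tg-labelled cells and 31 in the 138 WT-labelled cells (-1.20, -3.55 to 0.48; -2.45 over all members). Adenosine deaminase (Ada) had 0 and 21 UMIs, 1.55-fold lower in the Tg-labelled cells with the 0 set at 3 counts over the class. Nt5e (CD73) had 2 and 6 UMIs and Entpd1 (CD39) 4 and 16. Adk had 11 and 15 UMIs (75.4 and 22.8 CPM), and scaling the hepatocyte profile of each library to the hepatocyte list gave an estimate of 100% of the Tg-labelled and 53.8% of the WT-labelled Adk UMIs from hepatocytes.

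By the rule for named genes over all members, the 12 highest genes reached log2 ratios of 0.26 to 0.86, led by Wdfy1 with 22 UMIs in the Tg-labelled and 28 in the WT-labelled cells (-0.01 to 1.72). All 12 intervals span 0. The 12 lowest were led by Gzmc and the tetraspanin Cd63, which had 4 and 97 UMIs (-3.39, -5.29 to -1.99). Applied to the 37 and 138 cells, the rule gave 2 of the same highest genes and 6 of the same lowest.

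In the 37 and 138 cells the highest gene was Cd74, the invariant chain of MHC class II, with 25 UMIs in each library, but 23 of the Tg-labelled UMIs came from 1 cell. After it came St13, a cochaperone of Hsp70, with 40 UMIs in the Tg-labelled and 69 in the WT-labelled cells (1.39, 0.79 to 1.97; 1.10 over all members), and Zfpm1 (FOG1), a partner of GATA factors, with 25 and 44 (1.36, 0.59 to 2.10; 0.53 over all members). Slirp, Ddx46, Tbc1d1, Ssr3, Baz1a, Hadha, Nop56, Ccdc136 and Mrps12 followed, with ratios of 0.97 to 1.30. The intervals of these 12 genes all lie above 0, but the genes were chosen for the highest ratios, so this is no separate finding. Estimated hepatocyte-derived UMIs were 14.3% of the Tg-labelled and 5.75% of the WT-labelled UMIs for St13, and 15.8% and 5.03% for Hadha. This share was higher in the Tg-labelled cells for each of the 12 genes but Cd74 (2.08% and 3.25%). The effect of these shares on the ratios was not tested.

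The lowest after Gzmc and Ccr2 were Cd200r2, with 2 UMIs in the Tg-labelled and 49 in the WT-labelled cells, and Ifi208, a DNA-sensor family gene, also with 2 and 49 UMIs (both -2.44, -5.53 to -0.51). In B-like cells the ratio of Ifi208 was -2.88, so this gene was lower in the Tg-labelled library outside ILC1-like cells too. Cd200r2 was also lower in all kept cells outside the ILC1-like and hepatocyte-rich barcodes (-2.13, 23 and 193 UMIs). Lgals3 (galectin-3) had 4 and 96 UMIs (-2.41, -4.32 to -1.01), with -2.24 in NK-like cells, and Cd63 had 4 and 83 (-2.20, -4.11 to -0.79). Lrrk1, Lyst, Pdpk1, Smpdl3a, Amn1 and Trim56 completed the 12, with ratios of -2.10 to -1.83 and 3 or 4 UMIs each in the Tg-labelled cells.

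Of the heat shock chaperones, which help proteins fold, the counts ran the other way. Of 8 compared, 6 were higher and 2 lower in the Tg-labelled cells, 0 were called in either direction and the median was 0.37. In NK-like cells 6 of 7 were higher with a median of 0.40. Over all members 5 of 8 were higher and 3 lower, with a median of 0.04 (-0.52 for all genes). There 2 were called higher and 1 lower. Over all members, 0 of the 8 were left without genes over 25% estimated hepatocyte-derived. The effect of hepatocyte-derived UMIs on these counts and medians was not tested. Hsp90ab1 stood at 1131 CPM in the Tg-labelled and 869 CPM in the WT-labelled cells (0.38, 0.12 to 0.63; -0.18 over all members). Hspe1, the mitochondrial HSP10, stood at 281 and 161 CPM (0.80, 0.24 to 1.33; 1.06 over all members), with an estimated 29.9% of its Tg-labelled and 8.22% of its WT-labelled UMIs derived from hepatocytes.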

How the data were processed

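Each library is a 10x matrix of raw UMI counts per gene and cell, as the authors deposited it; the submitters' processing notes name Cell Ranger 6.1.2 (an earlier release per the file headers), Seurat 4.0.2, R 4.1.0 and GRCm38/mm10. The series text names SoupX; the counts are whole numbers and were treated as uncorrected. Coordinates come from GENCODE M21 (GRCm38). The sources used here do not say whether counting used the strand.

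The members, gene lists and named genes were chosen with earlier results of these data known. Each gene's UMIs were added up within a class and library and scaled to CPM. Ratios carry exact conditional binomial intervals, shares Clopper-Pearson and CPM Poisson intervals, at 95%. With 1 library per group no test was run. A count of 0 was set at 3 counts. Genes needed 50 UMIs over both groups compared, lists 5 such genes, and 78 rows whose symbol occurs more than once were left out.

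Leading genes were the 12 highest and 12 lowest Tg-labelled over WT-labelled, and the 10 highest and 10 lowest ILC1-like over NK-like by the smaller ratio of both libraries. They needed a UMI in 10% of members and under 25% estimated hepatocyte-derived UMIs. Predicted, mitochondrial, ribosomal, haemoglobin, immunoglobulin, rule and other-class genes were left out. The summing and ratios were tested on simulated data. Scrublet (scanpy 1.11.5) marked 0 doublets by its own threshold, which has not worked, so no doublets were removed; a score over 0.2, held by 404 Tg-labelled and 479 WT-labelled cells, was an alternative. Python 3.11.15, scipy 1.17.1 and edgeR 4.0.16 (TMM factors only) were used.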

Additional observations from a re-analysis of the deposited data

How the results depend on the processing

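No paired analysis was possible because each group is 1 library. The alternatives changed the cells (7 ways, 4 more added after seeing the data), the scaling (5 ways) or the denominator of shares; leaving out members with 2 UMIs of any other-lineage list left 0 cells and gave no value. The share ratio of ILC1-like cells (-1.95) moved to -1.02 of cells with a Ptprc UMI, -0.75 of Cd3-negative Ncr1 or Klrb1c cells and -1.004 without T cell marker UMIs (8 and 14 cells), and stayed below 0 under every alternative that gave a value. The 404 genes called higher and 856 called lower over all members became 84 and 127 without the doubtful barcodes, 108 and 146 with the hepatocyte list under 20%, 88 and 221 with the hepatocyte profile subtracted, 180 and 249 at 10% mitochondrial UMIs, 186 and 307 with 2 gate UMIs, 24 and 16 after thinning, and 1164 and 2406 with a minimum of 10 UMIs. The lower calls alone became 477 without hepatocyte genes in the total, 346 with TMM, 228 with means over cells and 149 without T cell marker UMIs. The ILC1 list median (-1.37) became -0.38, -0.35, -0.28, -0.58, -0.53 and -0.13 without the doubtful barcodes, under 20%, subtracted, at 10% mitochondrial, with means and after thinning. That of cytotoxic effectors (-0.93) became -0.041, 0.071, 0.18, -0.19, -0.10 and -0.016 in the same order, and -0.41 with 2 gate UMIs. Against NK-like cells in the Tg-labelled library the ILC1 median (1.86) became 2.87, 2.87, 2.83 and 2.71 without the doubtful barcodes, under 20%, subtracted and with means, and the NK median (-2.95) -4.36 without T cell marker UMIs and -2.11 after thinning.

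Signs turned for cytokines and chemokines (0.12, 0.22, 0.30 and 0.031 without the doubtful barcodes, under 20%, subtracted and with means), survival and apoptosis (0.067, 0.25, 0.30 and 0.056 in that order), NF-kB targets (0.029 without the doubtful barcodes), and, with the profile subtracted, methionine cycle genes (0.47) and the respiratory chain (-0.33). They turned for Ifng (0.20, 0.24 and 0.32 without the doubtful barcodes, under 20% and subtracted; 0.17 with 2 gate UMIs), Ccl5 (0.047, 0.11, 0.21; 0.12 after thinning), Tbx21 (0.19, 0.19, 0.27; 0.11 with means) and Rgs1 (0.35, 0.41, 0.49, 0.29 with means, 0.29 after thinning, 0.13 at 10% mitochondrial UMIs and 0.095 with 2 gate UMIs). They turned too, from values within 2-fold, for Ccl4 (-0.18 over all members; 0.84 without the doubtful barcodes), Ccl3 (-0.070; 0.97) and Hsp90ab1 (-0.18; 0.38). After thinning Il7r became 0.59, and without T cell marker UMIs Xcl1 against NK-like cells in the Tg-labelled library became -2.52. The 8 Tg-labelled cells of that setting were mainly doubtful barcodes, since 36 of the 37 others had a Trbc1 or Trbc2 UMI. The share ratio of -1.004 and the NK median of -4.36 rest on the same 8 cells. The causes of the turned signs were not tested. Genes with under 50 UMIs over both groups were not compared, which left 2512 genes in the 37 and 138 cells.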

Other observations

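Other gene groups were set side by side in ILC1-like and NK-like cells within a library. Genes of MHC class I presentation were higher in ILC1-like cells for 11 of 11 genes compared in the Tg-labelled library (median log2 ratio 0.58) and 15 of 15 in the WT-labelled library (median 0.75), without the doubtful barcodes. Over all members 5 of 12 were higher and 7 lower in the Tg-labelled library (median -0.10, against -0.12 for all genes), and 15 of 15 were higher in the WT-labelled library (median 0.65). The direction in the Tg-labelled library thus turned with a choice of cells made after seeing the data. Genes of the integrated stress response and endoplasmic reticulum were higher for 7 of 7 (median 0.35) in the Tg-labelled and 10 of 12 (median 0.18) in the WT-labelled library, and over all members for 8 of 9 (median 0.50) and 10 of 12 (median 0.28). The medians of all genes without the doubtful barcodes were 0.01 and 0.02. In the WT-labelled library, where more genes could be compared, 11 of 11 interferon response genes were higher (median 0.42) and 10 of 10 proliferation genes lower (median -1.45) in ILC1-like than in NK-like cells. Over all its members 10 of 13 interferon response genes were higher (median 0.22) and 12 of 12 proliferation genes lower (median -0.95). In the Tg-labelled library 6 interferon response genes were compared over all members, 3 higher and 3 lower (median 0.15). Nuclear respiratory chain genes had medians of -0.01 over 40 genes in the Tg-labelled and 0.02 over 42 in the WT-labelled library, and of 0.16 and -0.04 over all members.

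Single receptor and signalling genes also differed in level between the classes. The cytokine suppressor Cish had 13 UMIs in Tg-labelled ILC1-like and 1 in NK-like cells, and 60 and 9 in the WT-labelled library. Lag3, an inhibitory receptor, had 9 and 2 UMIs in the Tg-labelled library and 49 and 2 in the WT-labelled library. The aryl hydrocarbon receptor Ahr, a sensor of dietary and microbial ligands, had 8 and 3, and 50 and 3 UMIs. The Ly49 receptor Klra7 ran the other way, with 0 and 83 UMIs in the Tg-labelled and 12 and 197 in the WT-labelled library. These genes were chosen after their values were seen.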
